A study of Mus musculus with 7 samples.

Results

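Isg15, Usp18, Oasl2, Irf7, Ifit1, Ifit2, Ifit3, Rsad2 and Bst2 are genes whose transcription rises when a cell senses interferon. They were taken by their symbols from the deposited gene counts, 9 of the 27179 genes in the files, and all 9 were among the 15098 genes tested. The RNA came from femoral cortical bone of 12-week-old female mice on a C57BL/6 background, with the bone ends cut off and the marrow flushed out, from 3 mice labelled Dmp1Cre.EfnB2f/f and 4 Dmp1Cre controls. Both groups carry the Dmp1Cre transgene, Cre recombinase under a fragment of the Dmp1 promoter that is active in late osteoblasts and osteocytes. The groups differ in the floxed EfnB2 alleles, which encode the ligand ephrinB2 and are deleted where Cre is active. The controls were bred as cousins, and the labels place the mice in 4 parent crosses. Dmp1Cre.EfnB2f/f 1 and 2 came from the cross 76x78, controls 1 and 2 from 85x87 and control 4 from 84x86, and only the cross 47x42 gave a mouse of each group, Dmp1Cre.EfnB2f/f 3 and control 3. The tissue was the whole flushed shaft, so cells other than osteocytes contributed RNA.

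Type I interferons bind the Ifnar1 and Ifnar2 receptor pair, and the kinases Jak1 and Tyk2 then activate Stat2, which joins Irf9 in a complex that binds interferon-stimulated response elements in the promoters of target genes. The products of these targets block viral replication at several steps, and some of them, such as Usp18, Irf7 and Socs1, feed back on the pathway. A low tonic interferon signal keeps many of these genes expressed in uninfected tissue.

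All 9 genes had a lower mean in the libraries labelled Dmp1Cre.EfnB2f/f than in the controls, and 0 of them passed an adjusted p-value of 0.05 in the main test (the quasi-likelihood F test of edgeR, with Benjamini-Hochberg adjustment over all tested genes). Isg15 had the largest difference, at a level 3.24-fold higher in controls, followed by Irf7 at 2.50-fold, and Oasl2 and Usp18 at 2.31-fold each. Ifit2 and Rsad2, at 1.15-fold and 1.34-fold, overlapped between the groups. In bulk RNA of this kind, fewer cells expressing a gene and less RNA of that gene per cell cannot be told apart.

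The libraries held 17245556 to 22075778 assigned read counts. The 9 genes had between 133 counts (Usp18 in Dmp1Cre.EfnB2f/f 1) and 11142 counts (Rsad2 in control 3) per library. Over all tested genes, the libraries of a group differed by more than counting error. For single genes this need not hold, and Ifit3, with 150, 164 and 165 counts in Dmp1Cre.EfnB2f/f 1 to 3, varied no more than counting error allows. The targeted gene, Efnb2, went against the labels, with 14.3 ± 3.21 CPM (read counts scaled to library size, SD, n = 3) under the label Dmp1Cre.EfnB2f/f and 7.30 ± 1.07 CPM (SD, n = 4) under Dmp1Cre. The log2 fold change was 0.96 with a standard error of 0.21, edgeR gave an adjusted p of 0.511, and the groups did not overlap. The counts cover the whole gene and not the deleted exon alone, and they include RNA of cells in which Cre is not active. The reason for the higher level was not tested, and the direction of every difference given here rests on the labels. The first principal component of log2 CPM, with 53.9% of the variance, scored 68.8 in control 4 and 43.9 in control 1, and between -41.4 and -1.76 in the remaining 5 libraries, in which both groups were mixed.

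The promoters of the 9 genes were searched for the element through which interferon acts, and those that hold it are shown, since this element is what the genes are known to share. RefSeq windows on GRCm38.p6, from 250 bases before to 50 bases after the annotated start, were held for 8 of the 9 genes, all but Usp18. The core of the interferon-stimulated response element was searched on both strands as GAAA, any 2 bases and GAAA again, with overlapping matches counted. It was found in 5 of the 8, namely Isg15, Bst2, Ifit1, Ifit3 and Rsad2, and in 3.44% of all windows. The 160 bases before the start of each of these 5 are given 5' to 3' on the strand of the gene, with the letters of the matches in capitals. The window of Ifit3 belongs to a start inside the annotated span of the gene, and so do those of Ifit2, Irf7 and Oasl2. For these genes fewer than 250 bases before the outer end of the span were searched. A match on the opposite strand reads as TTTC, any 2 bases and TTTC.
Isg15 (chr4:156200819-156200978, minus strand): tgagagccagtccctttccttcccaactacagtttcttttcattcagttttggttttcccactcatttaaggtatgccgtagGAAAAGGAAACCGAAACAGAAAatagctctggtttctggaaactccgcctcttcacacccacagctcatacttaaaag
Bst2 (chr8:71537473-71537632, minus strand): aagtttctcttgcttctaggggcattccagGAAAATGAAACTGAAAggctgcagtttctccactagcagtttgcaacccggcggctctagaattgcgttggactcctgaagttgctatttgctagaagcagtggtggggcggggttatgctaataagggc
Ifit1 (chr19:34640729-34640888, plus strand): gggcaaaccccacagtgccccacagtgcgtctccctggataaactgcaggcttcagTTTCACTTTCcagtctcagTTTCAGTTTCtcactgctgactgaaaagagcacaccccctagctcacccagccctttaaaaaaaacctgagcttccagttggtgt
Ifit3 (chr19:34583369-34583528, plus strand): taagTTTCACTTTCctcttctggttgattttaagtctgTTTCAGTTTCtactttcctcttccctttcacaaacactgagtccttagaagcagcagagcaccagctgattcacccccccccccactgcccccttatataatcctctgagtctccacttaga
Rsad2 (chr12:26456453-26456612, minus strand): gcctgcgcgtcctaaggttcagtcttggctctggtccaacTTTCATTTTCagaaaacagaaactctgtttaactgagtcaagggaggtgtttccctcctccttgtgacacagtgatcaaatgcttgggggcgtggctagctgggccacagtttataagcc
The 3 matches of Isg15 overlapped in a single run from 78 to 57 bases before the start, and the 2 of Bst2 in a run from 130 to 115 bases before it. Ifit1 and Ifit3 each held 2 separate matches on the opposite strand, with the same letters in each gene, TTTCACTTTC further from the start and TTTCAGTTTC nearer to it. In Ifit1 they began 104 and 85 bases before the start and in Ifit3 156 and 122 bases before it. Rsad2 had 1 match, which began 120 bases before the start. The windows of Ifit2, Irf7 and Oasl2 did not hold these letters, and a shorter form of the search, GAAANNGAA, present in 8.56% of all windows, found the same number of genes, 5 of 8. Of the other interferon-stimulated genes listed for comparison, 20 of the 43 with a window held the full core. The gamma-activated site, an element of responses to interferon gamma, searched as TTCNNNGAA on both strands, was found for Ifit2 and Bst2 and in 8.3% of all windows. Within the windows searched, the matching letters did not divide the genes by their difference between the groups. Isg15 and Rsad2 both held the element, and Irf7 and Ifit2 both lacked it in their windows, which belong to starts inside their spans. A match is a description of the sequence and no evidence of binding in this bone.

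Levels of different genes were compared as normalized CPM per kilobase of the gene length in the files. Rsad2, which encodes viperin, a radical SAM enzyme that makes a chain-terminating nucleotide, was highest, with a mean over the 7 libraries of 98.2 CPM per kilobase and a range from 66.3 to 172. Irf7 (mean 45.1), Isg15 (41.3) and Bst2 (38.3) followed, and their ranges overlapped. Oasl2 (11.2) and Usp18 (9.05) came next. The highest library of Oasl2, at 22.9 CPM per kilobase, lay below the lowest of Bst2, at 28.6, but above the lowest of Irf7, at 19.6, and of Isg15, at 13.4. The 3 Ifit genes were lowest and close together, with 6.04 for Ifit3, 5.99 for Ifit1 and 5.80 for Ifit2, and their ranges overlapped with each other and with that of Usp18. All 9 were therefore expressed in every library, and Rsad2, the gene with most RNA per length, had one of the smallest differences between the groups.

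Isg15 encodes a ubiquitin-like protein that is attached to other proteins, and Usp18 encodes the protease that removes it and also blocks signalling at Ifnar2. Isg15 (Entrez gene 100038882, chr4:156199424-156200818) had 10.1, 15.0 and 15.9 CPM in Dmp1Cre.EfnB2f/f 1 to 3 and 41.0, 21.2, 52.7 and 62.4 CPM in controls 1 to 4. Control 2 was the lowest of the controls and still lay above the highest library labelled Dmp1Cre.EfnB2f/f. The log2 fold change of Isg15 was -1.697 (standard error 0.36, 95% interval from -2.52 to -0.87), and its edgeR p was 0.00127 before adjustment and 0.511 after it. Usp18 (Entrez gene 24110, chr6:121245906-121270917) had 7.39, 9.65 and 10.4 CPM in Dmp1Cre.EfnB2f/f 1 to 3 and 18.8, 14.4, 26.6 and 24.9 CPM in controls 1 to 4. The groups were again apart, with control 2 nearest to the libraries labelled Dmp1Cre.EfnB2f/f, and the log2 fold change was -1.21 (standard error 0.26). Over the 18 alternative analyses the log2 fold change of Isg15 ran from -1.93 to -1.07 and that of Usp18 from -1.35 to -1.01. The spans of Isg15 and Usp18 each overlap a long non-coding RNA gene (Gm46878 and Gm44148). Whether their exons overlap was not checked, and the strand setting of the counting is not given in the sources used here. Some reads of each pair may therefore be shared.

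Irf7 encodes the transcription factor that amplifies production of type I interferon. Irf7 (Entrez gene 54123, chr7:141263183-141266499) had 36.4, 57.03 and 42.01 CPM in Dmp1Cre.EfnB2f/f 1 to 3 and 107, 57.04, 133 and 155 CPM in controls 1 to 4. Dmp1Cre.EfnB2f/f 2 and control 2 were practically level, and the other 3 controls were far above all the libraries labelled Dmp1Cre.EfnB2f/f. The log2 fold change was -1.32 (standard error 0.34). Oasl2 belongs to the family of 2'-5' oligoadenylate synthetases, sensors of double-stranded RNA, and carries ubiquitin-like domains. Oasl2 (Entrez gene 23962, chr5:114896926-114912245) had 17.3, 22.8 and 20.3 CPM in Dmp1Cre.EfnB2f/f 1 to 3 and 42.5, 27.2, 71.8 and 44.5 CPM in controls 1 to 4. The groups did not overlap, control 3 was highest, and the log2 fold change was -1.21 (standard error 0.31). Bst2, or tetherin, is a membrane protein that holds budding virus at the cell surface. Bst2 (Entrez gene 69550, chr8:71534255-71537472) had 21.96, 25.0 and 24.4 CPM in Dmp1Cre.EfnB2f/f 1 to 3 and 33.3, 26.5, 35.7 and 39.7 CPM in controls 1 to 4. Its groups were separate but close, since control 2 was just above Dmp1Cre.EfnB2f/f 2, and the log2 fold change was -0.51 (standard error 0.18).

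Ifit1 binds viral RNA whose cap lacks the methylation of host messengers, Ifit2 and Ifit3 are its relatives, and the 3 genes are neighbours on chromosome 19. Ifit1 (Entrez gene 15957, chr19:34640889-34650009) had 8.39, 11.8 and 8.06 CPM in Dmp1Cre.EfnB2f/f 1 to 3 and 12.1, 14.4, 41.6 and 14.2 CPM in controls 1 to 4. Ifit3 (Entrez gene 15959, chr19:34583119-34588982) had 8.34, 8.99 and 8.70 CPM against 10.05, 11.01, 25.9 and 11.4 CPM. In both genes the groups did not overlap, but control 3 stood far above the other controls, and the log2 fold changes of -1.12 for Ifit1 (standard error 0.45) and -0.75 for Ifit3 (standard error 0.35) became -0.52 and -0.32 without it. Ifit2 (Entrez gene 15958, chr19:34550550-34576534) had 25.7, 22.05 and 15.6 CPM against 17.7, 26.6, 36.1 and 16.7 CPM. The groups of Ifit2 overlapped, and the log2 fold change of -0.20 (standard error 0.31), with an edgeR adjusted p of 0.772, was 0.055 without control 3. Rsad2 (Entrez gene 58185, chr12:26442743-26456452) had 329, 355 and 251 CPM against 277, 349, 652 and 389 CPM. Control 1 was below 2 of the libraries labelled Dmp1Cre.EfnB2f/f, and the log2 fold change of -0.42 (standard error 0.31), with an edgeR adjusted p of 0.574, was -0.12 without control 3. The paralogs Ifit3b, Ifit1bl1 and Ifit1bl2 lie in the same cluster, and reads shared between near-identical copies could have been split among them. Their log2 fold changes were -0.79 (standard error 0.38), -0.40 (standard error 0.42) and -0.21 (standard error 0.32), at levels of 2.26 to 5.09 CPM in the group means. The annotated span of Ifit1bl1 covers Ifit3b, Ifit1bl2 and Ifit1.

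**Figure D1:**
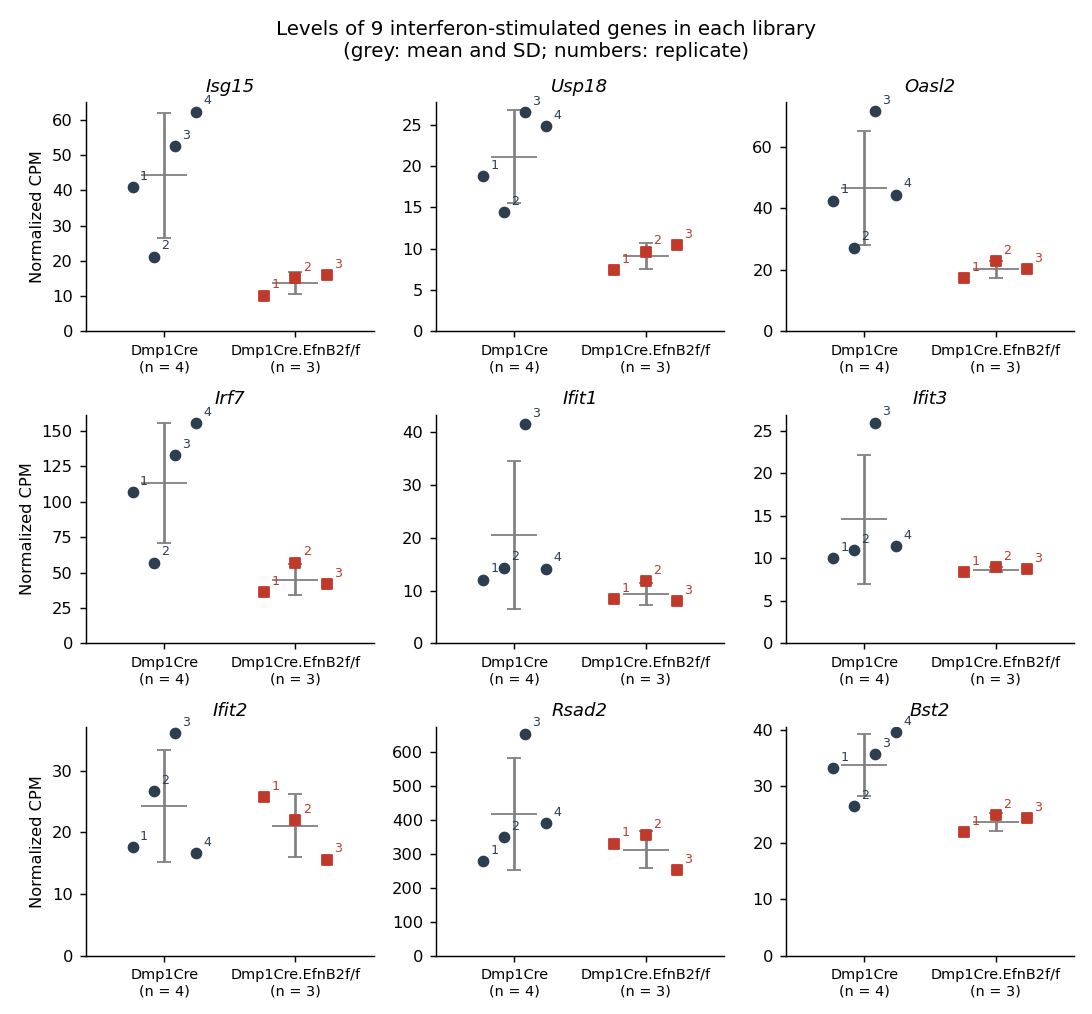
Normalized CPM (vertical axis, from 0) of the 9 genes in the 4 Dmp1Cre and 3 Dmp1Cre.EfnB2f/f libraries, with grey bars for the mean and SD of each group and the replicate number beside each point. For Isg15, Usp18 and Oasl2 all 3 Dmp1Cre.EfnB2f/f points lie below the 4 controls, for Ifit1 and Ifit3 control 3 stands alone at 41.6 and 25.9 CPM, and for Ifit2 and Rsad2 the groups overlap.

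As a list, 9 of the 9 genes had a log2 fold change below 0, where 48.7% of all tested genes did. The list was chosen with earlier results of these data known, so its counts are descriptions. The median was -1.12, and over all tested genes it was 0.012. In 7 of the 9, all but Ifit2 and Rsad2, every library labelled Dmp1Cre.EfnB2f/f was below every control, which held for 6.3% of all tested genes, and Irf7 met this only by 57.03 against 57.04 CPM. At an unadjusted p under 0.05, 6 of the 9 were lower (Isg15, Usp18, Irf7, Oasl2, Bst2 and Ifit1), against 5.03% of all tested genes. With edgeR 0 of the 9 were past the adjusted threshold, and so were 0% of all tested genes, and the adjusted p was 0.511 for 7 of the 9. DESeq2 gave 4 of the 9 as lower (Isg15, adjusted p = 0.00334, Usp18, 0.00857, Irf7, 0.0331, and Oasl2, 0.0407), with 0.318% of all tested genes lower. The study's limma pipeline without its day of collection term gave 2 of the 9 as lower (Usp18, adjusted p = 0.0170, and Isg15, 0.0360), beside 7.39% of all tested genes. In the two-sided exact permutation test over the 35 splits of 7 libraries, p was 0.0571 for Isg15, Usp18, Irf7, Oasl2, Bst2 and Ifit1, 0.0857 for Ifit3, 0.371 for Rsad2 and 0.657 for Ifit2, where 0.0286 is the smallest p that 3 against 4 libraries allow.

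**Figure D2:**
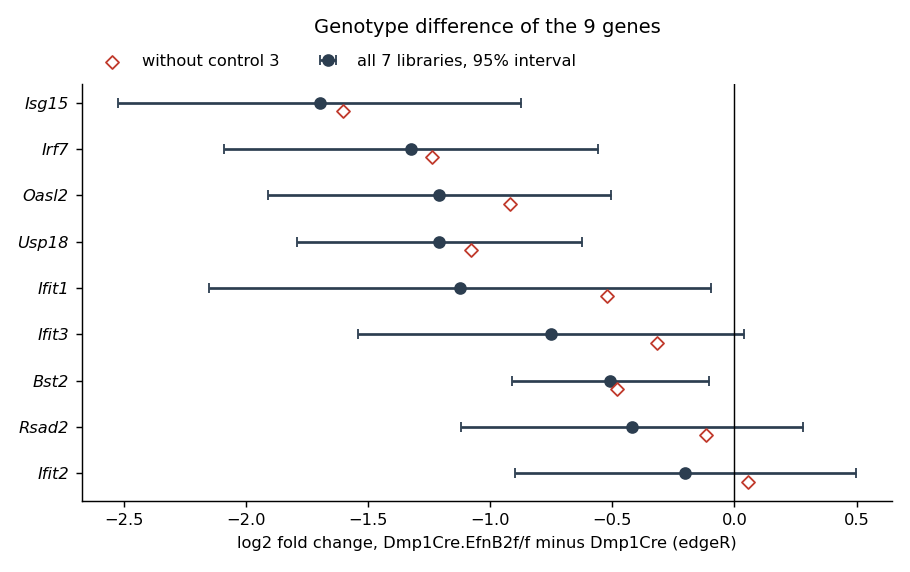
Log2 fold change of each of the 9 genes (horizontal axis, Dmp1Cre.EfnB2f/f minus Dmp1Cre, edgeR), with points and 95% intervals from all 7 libraries and open diamonds for the value without control 3. The intervals of Ifit3, Rsad2 and Ifit2 include 0, and leaving out control 3 moves Ifit1 from -1.12 to -0.52 and leaves Isg15 at -1.60.

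The 9 genes followed 2 patterns over the libraries. Isg15, Irf7, Usp18 and Bst2 were high in controls 1, 3 and 4 and low in control 2, and their log2 CPM values correlated with each other at Pearson's r from 0.955 to 0.994 over the 7 libraries. Ifit1, Ifit3 and Rsad2 were high in control 3 alone, with r from 0.902 to 0.980 among themselves. Oasl2 lay between, at r of 0.957 with Usp18 and 0.869 with Ifit1. Ifit2 was close to the second set (r of 0.780 with Rsad2) and near 0 with the first (r of -0.0071 with Isg15 and -0.0366 with Bst2). These correlations are descriptions of 7 libraries that share tissue makeup and the difference between the groups. Control 3 was the highest library for 6 of the 9 genes and control 4 for the other 3 (Isg15, Irf7 and Bst2), where control 3 was highest for 12.1% and control 4 for 32.5% of all tested genes. The lowest library was Dmp1Cre.EfnB2f/f 1 for 6 genes and Dmp1Cre.EfnB2f/f 3 for 3 genes. Averaged over the 9 genes, the deviation from each gene's own mean was -0.61, -0.32 and -0.54 on the log2 scale in Dmp1Cre.EfnB2f/f 1 to 3 and 0.14, -0.071, 0.97 and 0.44 in controls 1 to 4. Control 2 was therefore the control nearest to the libraries labelled Dmp1Cre.EfnB2f/f, although its parents were those of control 1.

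**Figure D3:**
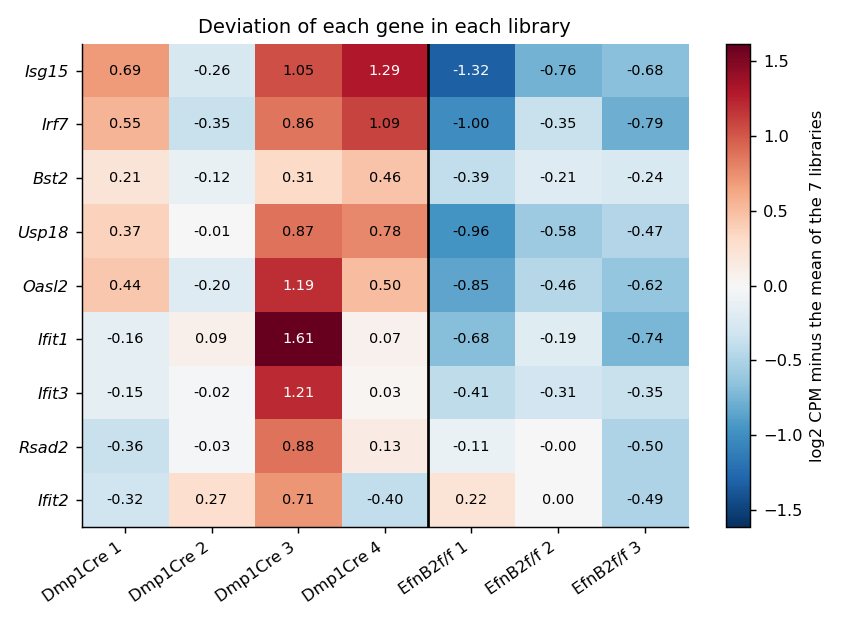
Deviation of each gene in each library from its mean over the 7 libraries (colour and printed number, log2 CPM), with the 4 Dmp1Cre libraries left and the 3 Dmp1Cre.EfnB2f/f libraries right of the line. Control 3 holds the highest value for 6 of the 9 genes, and every value of Dmp1Cre.EfnB2f/f 1 to 3 is below 0 for Isg15, Irf7, Bst2, Usp18, Oasl2, Ifit1 and Ifit3.

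Within the only cross that gave both groups, 47x42, all 9 genes were lower in Dmp1Cre.EfnB2f/f 3 than in control 3. The differences in log2 CPM were -2.35 for Ifit1, -1.82 for Oasl2, -1.72 for Isg15, -1.66 for Irf7, -1.56 for Ifit3, -1.38 for Rsad2, -1.34 for Usp18, -1.20 for Ifit2 and -0.55 for Bst2. These rest on 1 mouse of each group, and control 3 was the mouse with the highest level of 6 of these genes, so cross and animal cannot be told apart here. Without controls 1 and 4, the pair apart on the first principal component, the median of the 9 genes was -1.09 and 9 of 9 were lower at an unadjusted p under 0.05 (7.22% of all tested genes), in a comparison chosen after the data were seen. Without control 3 the median was -0.52 and 8 of 9 genes were lower, 6 of them at an unadjusted p under 0.05 (8.51% of all tested genes).

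Genes outside the 9 that most resembled them were sought by Pearson's correlation with the mean standardized profile of the 9 over the 7 libraries. The closest were Nlrc5 (r = 0.975), Rtp4 (0.968), Oas2 (0.965), Zbp1 (0.963) and Rnf213 (0.958). Nlrc5 is a transactivator of MHC class I genes, Oas2 is a 2'-5' oligoadenylate synthetase, Zbp1 is a sensor of left-handed nucleic acid, and Rnf213 is a large ubiquitin ligase. Of the 30 genes highest in this correlation, 11 belonged to the interferon lists used here. Of the 15098 tested genes, these lists held 52 other interferon-stimulated genes, 6 receptors, 11 Jak and Stat genes, 19 sensors and adaptors and 28 interferon gamma targets. Some genes are in more than 1 list. The profile includes the difference between the groups, so genes with a like difference rank high for that reason too.

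The interferons themselves were barely present in the RNA. Of 21 listed genes for type I, II and III interferons, 4 had 0 counts in every library, and 0 reached the level needed for testing. The highest count was 14, for Ifnk, an epithelial type I interferon, in control 2. Ifnb1, the first interferon made after viral sensing, had 1 count in all 7 libraries together, in Dmp1Cre.EfnB2f/f 1, and Ifng had 1 to 7 counts per library. A count of 0 in a library allows up to 0.136 to 0.174 CPM, for counting error only, so no difference in interferon RNA was detectable at this depth.

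Of 6 interferon receptor genes tested, 5 had a lower mean, with a median log2 fold change of -0.16, and in 3 of them every library labelled Dmp1Cre.EfnB2f/f was below every control (6.3% of all tested genes). Ifnar1 was at 101.2 ± 0.581 CPM (SD, n = 3) against 104.5 ± 5.58 CPM (SD, n = 4), with the Dmp1Cre.EfnB2f/f label given first here and in the next values, and its log2 fold change was -0.046 (standard error 0.13). Ifnar2 had 81.2 ± 2.56 CPM against 96.4 ± 7.84 CPM (-0.25, standard error 0.14), with no overlap between the groups. An unadjusted p under 0.05 was reached by 1 of the 6, Ifnlr1, the receptor of type III interferon (-0.59, standard error 0.16). By that rule 5.03% of all tested genes were lower. Downstream, Irf9 and Stat2 of the transcription complex had lower means. Irf9 had 66.6 ± 9.88 CPM against 116.8 ± 22.5 CPM (-0.81, standard error 0.20), and Stat2 had 50.5 ± 2.43 CPM against 67.9 ± 14.7 CPM (-0.43, standard error 0.19). Every library labelled Dmp1Cre.EfnB2f/f was below every control for both. These genes are targets of the pathway as well as parts of it. Over the 11 genes of the Jak and Stat list, 7 were lower and 4 higher. An unadjusted p under 0.05 was reached by 2, both lower, beside the same 5.03%. These were Irf9 and the inhibitor Socs1 (-0.83, standard error 0.36). With edgeR 0 of these receptor and Jak and Stat genes passed the adjusted threshold. DESeq2 gave 1 of them, Irf9 (adjusted p = 0.0444), beside 0.318% of all tested genes lower. The limma pipeline gave 2, Ifnlr1 (adjusted p = 0.0101) and Irf9 (0.0333), beside 7.39%.

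A list of 58 other genes known to respond to type I interferon was followed in the same way. It too was chosen with earlier results of these data known. Of its genes, 56 were in the files and 52 were tested. Of the 52, 51 had a log2 fold change below 0, the median was -0.47, and 22 had an unadjusted p under 0.05, all lower (5.03% of all tested genes). Past the adjusted threshold there were 0 with edgeR, 5 with DESeq2 (0.318% of all tested genes lower) and 19 with the limma pipeline (7.39%). In 21 of the 52 every library labelled Dmp1Cre.EfnB2f/f was below every control (6.3%). The 1 gene with a higher mean was Phf11d (0.37, standard error 0.38), named after its value was seen. The lowest p belonged to Oas3, which had 48.1, 71.7 and 71.3 CPM in Dmp1Cre.EfnB2f/f 1 to 3 and 160.0, 98.7, 185 and 226 CPM in controls 1 to 4 (-1.39, standard error 0.29). Oasl1, the paralog beside Oasl2, had 8.45 ± 1.74 CPM against 20.7 ± 6.26 CPM (-1.29, standard error 0.29), and Oas1a had 12.0 ± 2.33 CPM against 28.7 ± 8.56 CPM (-1.26, standard error 0.29). Oas3, Oasl1 and Oas1a are of the same synthetase family as Oasl2, and Adar, which edits adenosine in double-stranded RNA, came next (-0.75, standard error 0.19). Of the 4 listed genes in the files that were not tested, Ifi44l had too few counts, and Mx1, Mx2 and Oas1b are annotated as transcribed pseudogenes in the C57BL/6J reference and were left out with that class. With all gene classes kept, the log2 fold changes of these 3 were -0.84 for Mx1 (standard error 0.35), -0.58 for Mx2 (standard error 0.32) and -0.75 for Oas1b (standard error 0.26). Mx1 had 6.56, 8.01 and 8.12 CPM in Dmp1Cre.EfnB2f/f 1 to 3 and 8.65, 12.9, 23.1 and 9.24 CPM in controls 1 to 4, again highest in control 3.

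Genes upstream of interferon production and targets of interferon gamma had medians nearer to 0, a contrast that was not tested. Of 19 sensors and adaptors tested, 17 were lower with a median of -0.24. An unadjusted p under 0.05 was reached by 3, all lower, where 5.03% of all tested genes were lower by that rule. These were Irf7 itself, Dhx58, a helicase related to the RNA sensors (-0.92, standard error 0.24), and Myd88, the adaptor of Toll-like receptors (-0.49, standard error 0.20). Of 28 targets of interferon gamma, 23 were lower with a median of -0.13, and 4 had an unadjusted p under 0.05, beside the same 5.03%. These 4 were the GTPase Irgm1 (-0.63, standard error 0.23) and the immunoproteasome subunit Psmb9 (-0.64, standard error 0.24), with the transcription factor Irf1 (-0.39, standard error 0.16) and Nlrc5 (-0.44, standard error 0.18). In both lists 0 genes passed the adjusted threshold with edgeR. Among the sensors and adaptors DESeq2 gave 1, Irf7 itself, and the limma pipeline gave 3, namely Mb21d1, Tlr7 and Ikbke, which are named after their values were seen. Among the targets of interferon gamma DESeq2 gave 0 and the limma pipeline 1, Irgm1 (adjusted p = 0.0255). Over all tested genes DESeq2 gave 0.318% as lower and the limma pipeline 7.39%.

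**Figure D4:**
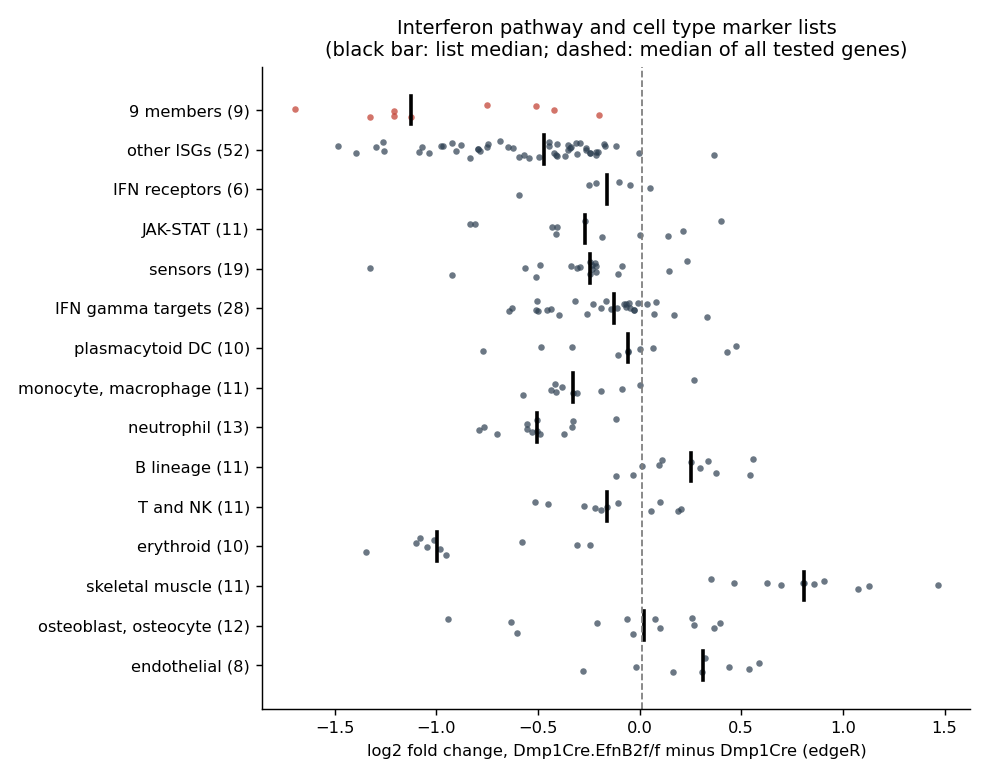
Log2 fold change (horizontal axis, Dmp1Cre.EfnB2f/f minus Dmp1Cre, edgeR) of each tested gene in the interferon lists and the cell type marker lists, with the number of genes in brackets, a black bar for the median of each list and a dashed line for the median of all tested genes. The 9 genes (median -1.12), the other interferon-stimulated genes (-0.47) and the erythroid (-0.996) and neutrophil (-0.51) markers lie below the dashed line, and the skeletal muscle markers (0.81) lie above it.

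Markers of several cell types differed between the group means, and their part in the difference of the 9 genes was not tested. With edgeR 0 markers of the 9 cell type lists passed the adjusted threshold. An unadjusted p under 0.05 was reached, all lower, by 7 erythroid, 5 neutrophil, 2 monocyte and macrophage and 1 plasmacytoid dendritic cell markers, where 5.03% of all tested genes were lower by that rule. It was reached, all higher, by 7 muscle, 3 endothelial and 1 B lineage markers, where 4.63% of all tested genes were higher. No marker of T and natural killer cells or of osteoblasts and osteocytes reached it. DESeq2 gave 1 marker, an erythroid one, as lower, beside 0.318% of all tested genes. The limma pipeline gave as lower 3 erythroid, 3 T and natural killer cell, 2 neutrophil, 2 monocyte and macrophage and 1 plasmacytoid dendritic cell markers, beside 7.39% of all tested genes, and as higher 9 muscle, 6 B lineage, 5 endothelial and 2 osteoblast and osteocyte markers, beside 7.49%. The erythroid list was lower for 10 of the 10 genes tested, with a median of -0.996 and a summed level of 9288 to 17961 CPM under the label Dmp1Cre.EfnB2f/f and 20410 to 57034 CPM under Dmp1Cre. The neutrophil list was lower for 13 of 13 genes (median -0.51, 13470 to 16801 CPM against 19331 to 22680 CPM). The monocyte and macrophage list was lower for 9 of 11 genes (median -0.33, 1133 to 1190 CPM against 1304 to 1605 CPM). None of the markers of these lists was at 0 in every library. The skeletal muscle list was higher for 11 of 11 genes (median 0.81, 27118 to 40043 CPM against 13010 to 28057 CPM). Plasmacytoid dendritic cells, known as strong producers of type I interferon, had 6 of 10 listed genes lower, with log2 fold changes from -0.77 to 0.48, a median of -0.056 and summed levels of 446 to 467 CPM against 434 to 467 CPM. Every library labelled Dmp1Cre.EfnB2f/f was below every control for 1 of these 10, beside 6.3% of all tested genes. The same held for 7 of 10 erythroid, 4 of 13 neutrophil and 3 of 11 monocyte and macrophage markers. It held for 0 markers of the remaining lists. Every such library was above every control for 3 endothelial, 1 B lineage, 1 muscle and 1 T and natural killer cell markers (762 of the 15098 tested genes). The lists for T and natural killer cells (median -0.16, 7 of 11 lower), B lineage (0.25, 9 of 11 higher), osteoblasts and osteocytes (0.020, 6 of 12 lower) and endothelium (0.31, 6 of 8 higher) completed the set. Among the most abundant genes of these lists, the groups did not overlap for Hba-a1 (log2 fold change -1.34, standard error 0.56) and F13a1 (-0.41, standard error 0.18). They overlapped for Myh4 (1.47, standard error 0.54), Col1a1 (-0.94, standard error 0.62), Nkg7 (-0.52, standard error 0.24) and Irf8 (-0.48, standard error 0.25). They also overlapped for Vwf (-0.28, standard error 0.31), S100a9 (-0.12, standard error 0.31) and Cd79b (0.10, standard error 0.26).

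By median deviation the 9 genes were highest in control 3, in which none of the 9 marker lists was highest. This median hides a split, since Isg15, Irf7 and Bst2 were highest in control 4 (1.29, 1.09 and 0.46). The medians of the erythroid, neutrophil and B lineage lists were also highest there (1.30, 0.43 and 0.27). The median erythroid marker deviated by 1.30 on the log2 scale in control 4 and by 0.10 in control 3, where the median of the 9 genes deviated by 0.46 and 0.88. In control 3 the median monocyte and macrophage marker was at -0.11 and the median neutrophil marker at -0.014, and the muscle median, at 0.38, was in the range of the libraries labelled Dmp1Cre.EfnB2f/f (0.36 to 0.77). Leaving out controls 1 and 4 was chosen after the data were seen and kept control 3, in which the 9 genes were highest. The median log2 fold change was then 0.014 for the monocyte and macrophage list, -0.42 for the neutrophil list and -0.49 for the erythroid list. For the 9 genes it was -1.09 and for the other interferon-stimulated genes -0.67. Without control 3 it was -0.40, -0.62 and -1.12 for the same 3 marker lists in order. For the 9 genes and the other interferon-stimulated genes it was -0.52 and -0.29 without control 3. Both results depend on which controls remain, and the contrast between the lists was not tested.

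**Figure D5:**
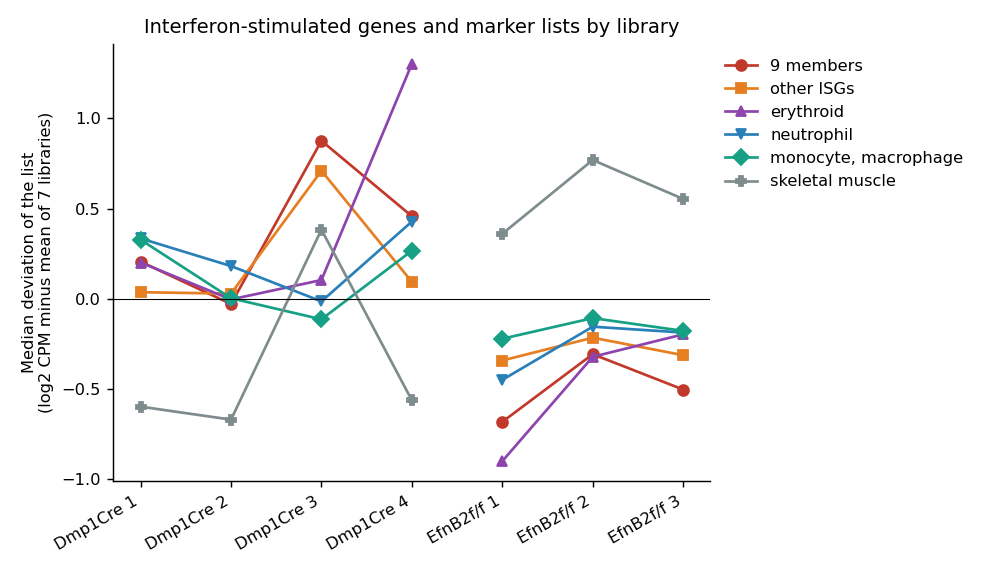
Median deviation of the genes of 6 lists in each library (vertical axis, log2 CPM minus the mean of the gene over the 7 libraries), with 1 coloured line per list and the libraries along the horizontal axis. The 9 genes and the other interferon-stimulated genes peak in control 3 (0.88 and 0.71), the erythroid list peaks in control 4 (1.30), and all lists shown but skeletal muscle are below 0 in the 3 Dmp1Cre.EfnB2f/f libraries.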

How the data were processed

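RNA from flushed femora was sequenced for 3 Dmp1Cre.EfnB2f/f and 4 Dmp1Cre mice. The authors mapped reads to mm10 with Rsubread, assigned them to Entrez genes with featureCounts and deposited raw counts per gene, which were neither normalized nor filtered. The strand setting and versions are not given in the sources used here. Symbols were read from the files of the single libraries, since 26 had changed in the table of the whole series.

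A gene entered the tests when 3 or more libraries reached 0.65 CPM (16302 genes), less the classes the study removed (immunoglobulin segments, predicted genes, pseudogenes, ribosomal RNA, genes without a symbol, and Y chromosome genes with Xist), leaving 15098 genes. They were tested with edgeR 4.0.16 in R 4.3.3 (TMM, robust quasi-likelihood, Benjamini-Hochberg, threshold 0.05). Printed levels are TMM-normalized CPM, log2 CPM used a prior count of 2, and standard errors come from the F statistic. The study collected bones on 2 days, 2 Dmp1Cre.EfnB2f/f and 3 control mice on day 1 and 1 of each on day 2. It blocked on that day, which the labels do not give for each library. A difference between the days therefore cannot be told apart here from one between mice. DESeq2 1.42.0, limma 3.58.1 (quantile normalization, array weights), other scalings and filters, blocks and each library left out were alternatives, and leaving out controls 1 and 4 together was chosen after seeing the data. The tests were tried on simulated counts. Positions and promoters come from RefSeq GRCm38.p6, which held 25275 of the 27179 genes. All 9 pairs of libraries within a group differed beyond sampling noise (chi-square per degree of freedom from 28.9 to 226). Each library is 1 mouse.

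The 9 genes and all lists were chosen with earlier results of these data known. Named are the 9 genes, Efnb2, Stat2, Irf9, Ifnar1, Ifnar2, close paralogs, up to 4 genes of lowest unadjusted p under 0.05 per interferon list, the most abundant marker per cell type and the 5 genes most alike. A further gene of the Jak and Stat list is not reported here.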

Additional observations from a re-analysis of the deposited data

Results flagged for a closer look

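For each of 42 named genes the highest and the lowest control were checked by Dixon's ratio, the distance to the next control as a share of the whole spread of the 4 controls. The ratio was past its 95% critical value for 7 genes, where chance gives about 2.1. In 5 of the 7 the library apart was control 3, which was the highest, with values of 0.924 for Ifit1, 0.914 for Ifit3, 0.903 for Ifit3b, 0.977 for Oas2 and 0.830 for Irgm1. These genes respond to a common inducer and are not independent. Control 4 was apart for Ifnar2 (0.961) and control 2, the lowest control, for Oas1a (0.8293). The part of that animal, its cross or its library in these values was not tested.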

How the results depend on the processing

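The count of the 9 genes with a lower mean (8 to 9) and of those at an unadjusted p under 0.05 stayed within 1.5 times under all 18 alternatives. Among the interferon-stimulated genes, calls at the adjusted threshold appeared only with DESeq2 and limma. DESeq2 gave 4 of the 9 genes, 5 of the other interferon-stimulated genes, and 24 genes higher and 48 lower over all tested genes, and the limma pipeline gave 2, 19, 1131 and 1115. Efnb2 passed the threshold with DESeq2 (log2 fold change 0.94) and limma (0.76). The median of the 9 genes was -1.58 and that of the other interferon-stimulated genes -0.97 with the parent cross as a block, an estimate that rests on 1 mouse of each group. With each library left out the median of the 9 genes ran from -1.26 to -0.52, the latter without control 3, and the log2 fold change of Ifit2 from -0.37 to 0.055, turning above 0 without control 3. The number of other interferon-stimulated genes at an unadjusted p under 0.05 was 35 with limma (17.7% of all tested genes lower) and without controls 1 and 4 (7.22%). With each library left out it ran from 12 (without Dmp1Cre.EfnB2f/f 1, 1.03%) to 25 (without control 1, 4.02%), where the main test gave 5.03%. Over all tested genes, leaving out each library gave 0 to 1 genes higher and 0 to 2 lower, and without controls 1 and 4 there were 1 and 1. With the replicate number as a block, 14 of the other interferon-stimulated genes and 4 of the 9 genes had an unadjusted p under 0.05. By that rule 1.44% of all tested genes were lower with this block, against 5.03% in the main test. At the adjusted threshold the block gave 1 gene higher over all tested genes. Same-numbered libraries deviated with correlations of -0.145, 0.0631 and -0.419, each from 1 pair of libraries. These gave no sign of a pairing by number, although the mice numbered 3 share the cross 47x42. The cause of these shifts was not tested. With 3 and 4 mice a group and wide spread among controls, the size of each difference is known only within the intervals given.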
